A study of Homo sapiens with 12 samples.

Results

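Interferon response genes were followed through 2 histone marks mapped by CUT&RUN in the established Merkel cell carcinoma line MKL-1. The set holds 44 named genes among the 19970 protein-coding genes of the autosomes and chromosome X. It was listed by name, from the interferon receptors and transcription factors to the proteins that interferon induces. CUT&RUN uses an antibody bound to chromatin to direct a nuclease, which releases the DNA under the antibody. The vehicle group was MKL-1 grown with 1% ethanol for 6 days. The EPZ011989 group received 3 µM of EPZ011989, an inhibitor of the histone methyltransferase EZH2, in the same 1% ethanol for the same 6 days. Medium was renewed on day 3 in both. Each treatment was done in duplicate, and every culture was split for CUT&RUN with an H3K27me3 antibody, an H3K4me3 antibody or control IgG, all at a dilution of 1 to 100. This gave 12 libraries, 2 for each treatment and antibody. With a single cell line, the p-values measure only the scatter of duplicate cultures and their libraries, and no other tumour is represented.

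Interferons are secreted when cells sense foreign or misplaced nucleic acid. Type I interferons bind IFNAR1 and IFNAR2, and interferon gamma binds IFNGR1 and IFNGR2. The receptors act through JAK kinases on STAT proteins, and a complex that holds STAT2 and IRF9 binds interferon-stimulated response elements in front of the induced genes. H3K4me3 lies at start sites of genes that are active or ready for use. H3K27me3 is written by EZH2 in Polycomb repressive complex 2 and lies over silenced genes. A start site with both marks is called bivalent, although a mixed cell population can give the same picture. Merkel cell carcinoma often carries Merkel cell polyomavirus, and MKL-1 is a virus-positive line.

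The deposited data were 1 peak list per library. The vehicle H3K27me3 lists held 40782 and 44287 peaks over 154 and 175 Mb, and the EPZ011989 lists held 363 and 22 peaks over 0.217 and 0.0072 Mb. The H3K4me3 lists were alike in size, with 21086 to 23804 peaks, and covered 41.0 and 42.0 Mb in vehicle against 46.1 and 39.0 Mb with EPZ011989. The IgG lists held 4 to 38 peaks, and none touched the window of any of the 44 genes. Read depth is unknown. The labelled cell type matched its markers: 14 of 14 Merkel cell and neuroendocrine markers, among them ATOH1, SOX2 and INSM1, had H3K4me3 in both vehicle libraries. The same held for 3 of 10 lymphoid and myeloid, 2 of 6 fibroblast, 1 of 6 keratinocyte and 1 of 5 endothelial markers. The leukocyte gene PTPRC had no H3K4me3 peak there, while CD79A, CD14 and SPI1 did. Of the Merkel cell and neuroendocrine markers, NEUROD1 and NCAM1 also had H3K27me3 in both vehicle libraries.

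Each gene was given a window that extends 2500 bp in both directions from either end of the gene and spans 10002 bp unless the gene is short. Its value in a library is how much of this window, in bp, lay inside peaks. In vehicle-treated cells the 44 genes fell into 4 states of nearly equal size. H3K4me3 alone marked 12 genes in both vehicle libraries: IFNAR1, IFNGR1, IFNGR2, IRF7, IRF9, IFIT1, IFIT2, IFIT5, OAS3, RSAD2, CMPK2 and USP18. Both marks lay at 10: IFNAR2, STAT2, IRF1, IRF3, IFIH1, OASL, MX1, MX2, HERC5 and IFI6. H3K27me3 alone marked 10: OAS2, IFITM1, IFITM2, IFITM3, BST2, ISG20, ISG15, IFI27, XAF1 and EPSTI1. The remaining 12 had neither mark in both vehicle libraries, and 11 of them had no peak of either mark at their window in any of the libraries: IFNB1, IFIT3, OAS1, GBP1 to GBP5, IFI35, IFI44 and IFI44L. Away from the window, inside the gene, single peaks were listed in OAS1 (H3K4me3, 436 bp, vehicle replicate 2), GBP4 (H3K27me3, 916 bp, vehicle replicate 1) and IFI35 (H3K4me3, 244 bp, vehicle replicate 1). Whether 2 marks at a gene lie in the same cells cannot be told from these bulk libraries, nor can a mark in fewer cells be told from less of the mark per cell.

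H3K27me3 thus marked 20 of the 44 genes in both vehicle libraries, beside 36.9% of all genes. H3K4me3 marked 22 of 44, beside 65% of all genes, and both marks lay at 10, beside 24.2%. The median window held 312.5 bp of H3K27me3 and 335.75 bp of H3K4me3 in the mean of the vehicle libraries. Over all genes these medians were 0 and 1802.5 bp. These shares are descriptions of the list and were not tested against other lists.

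**Figure D1:**
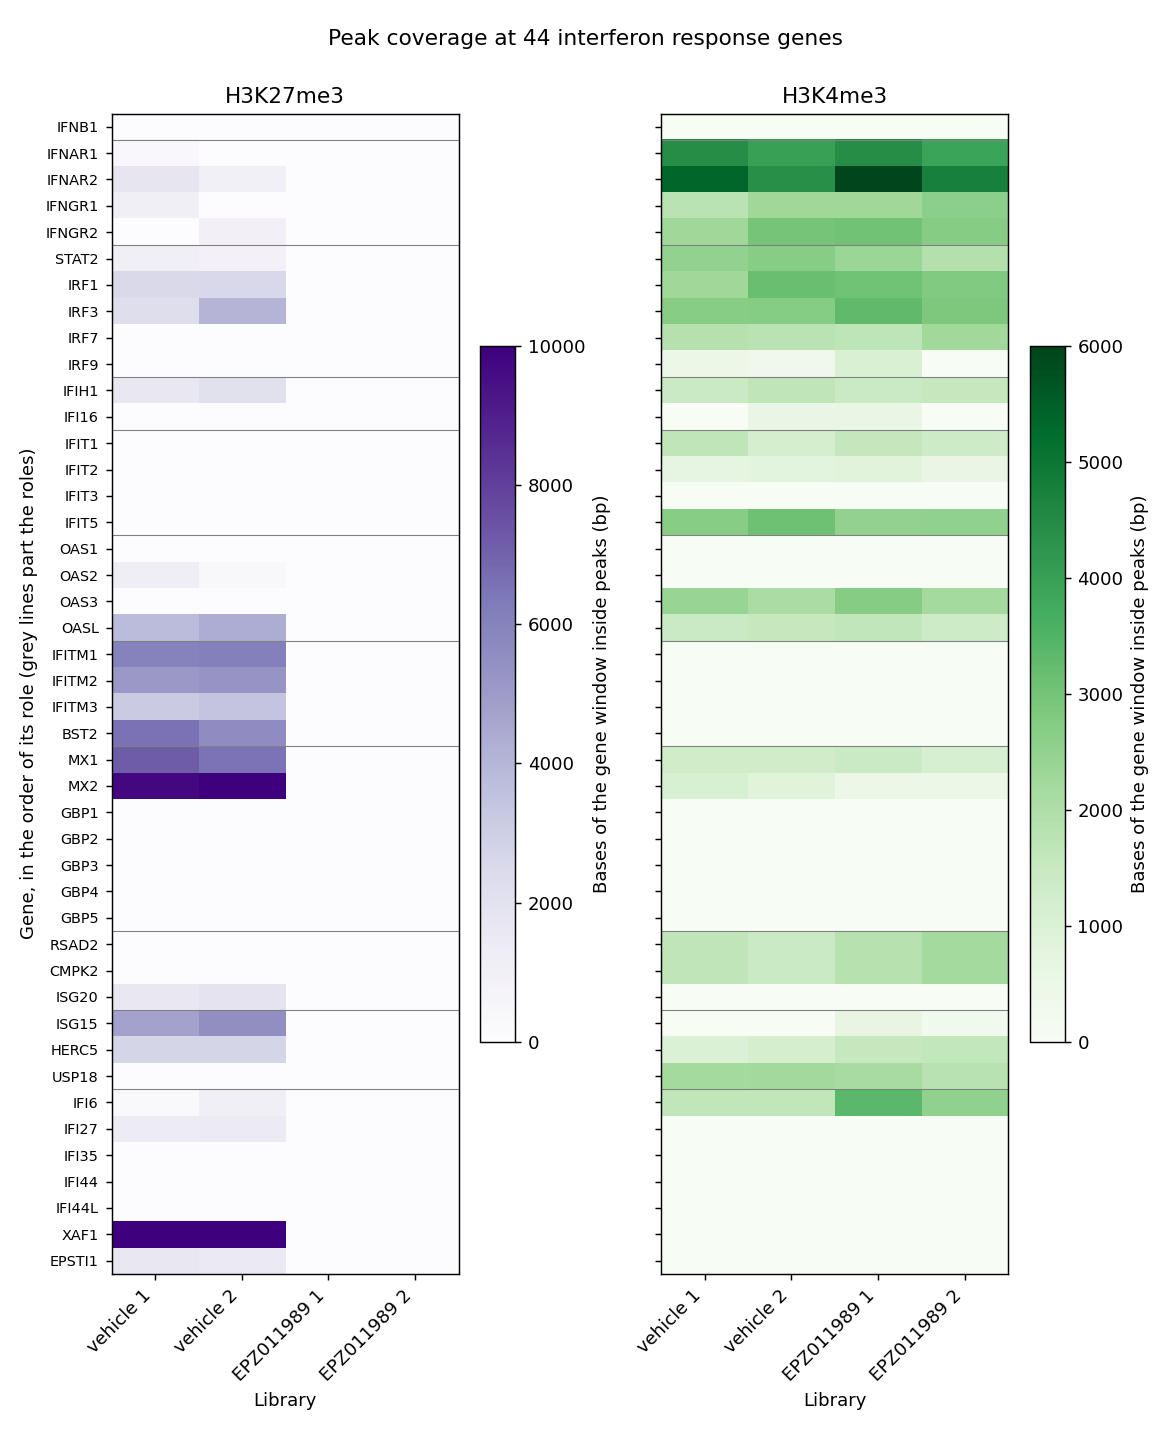
Bases of each gene's window inside H3K27me3 peaks (left, purple) and H3K4me3 peaks (right, green), for 44 genes in rows ordered by role and 4 libraries of each mark in columns. The H3K27me3 columns of both EPZ011989 libraries are empty at every gene, while H3K4me3 is present at 22 genes in both vehicle libraries.

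With EPZ011989 not 1 base of the 44 windows lay inside a H3K27me3 peak in either library. The residual peak nearest to any of the genes lay 108 kb from IFI6 in replicate 1. Of all genes tested for H3K27me3, 60.2% were called lower by limma (5783 of 9600, Benjamini-Hochberg adjusted p under 0.05) and 0 higher. Of the 44 genes, 23 had a peak in at least 1 library and could be tested. Of these, 16 fell (18 at an unadjusted p under 0.05, beside 64.1% of all genes tested). The other 21 had no H3K27me3 peak at their window in any library. The tested genes entered only through vehicle peaks, so their direction was fixed and their share is near that of all genes. At all 23 the EPZ011989 libraries were equal at 0. At 14.2% of the tested genes, XAF1 among them, the vehicle libraries were equal as well, and the p then rests on the spread borrowed from other genes. Without EPZ011989 replicate 1, or without replicate 2, 10 of the 16 remained called, with the same values of 0 in the library left; ISG15, IFIH1, OASL, BST2, STAT2 and ISG20 lost the call. Forcing the nearly empty lists to the distribution of the vehicle lists by quantile normalization split the calls into 9 lower and 6 higher, with STAT2, IFIH1 and IFI27 among those reversed.

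How far the absence of a peak tells of absence of the mark depends on the peak's strength. The authors' fold, the height of a peak over its local background, was at least 4.36 and 4.37 for every peak in the EPZ011989 lists but went down to 2.82 and 2.67 in the vehicle lists. A vehicle peak under 4.36 was weaker than anything listed after EPZ011989. In vehicle replicate 1, 22 of the 44 genes had a H3K27me3 peak at their window, and 10 had one above that fold. In replicate 2 the numbers were 21 and again 10. The 10 were BST2, HERC5, IFITM1, IFITM2, IFITM3, IRF1, ISG15, MX2, STAT2 and XAF1 in both libraries. For the other genes with H3K27me3, among them MX1 at 4.17 and 4.22, a remaining weaker signal was not detectable in these lists. This holds for MX1, OASL, IFIH1, ISG20, IFI27 and EPSTI1, which were called lower. For them the call says only that the listed peaks were gone, not that the mark was. At the 10 genes, too, a signal reduced to a fold under 4.36 would not have been seen. IRF1 at 5.20 and 4.69 and STAT2 at 4.78 and 5.60 lay little above that fold. Whether the smallest listed fold depends on read depth, which is unknown, was not tested.

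**Figure D2:**
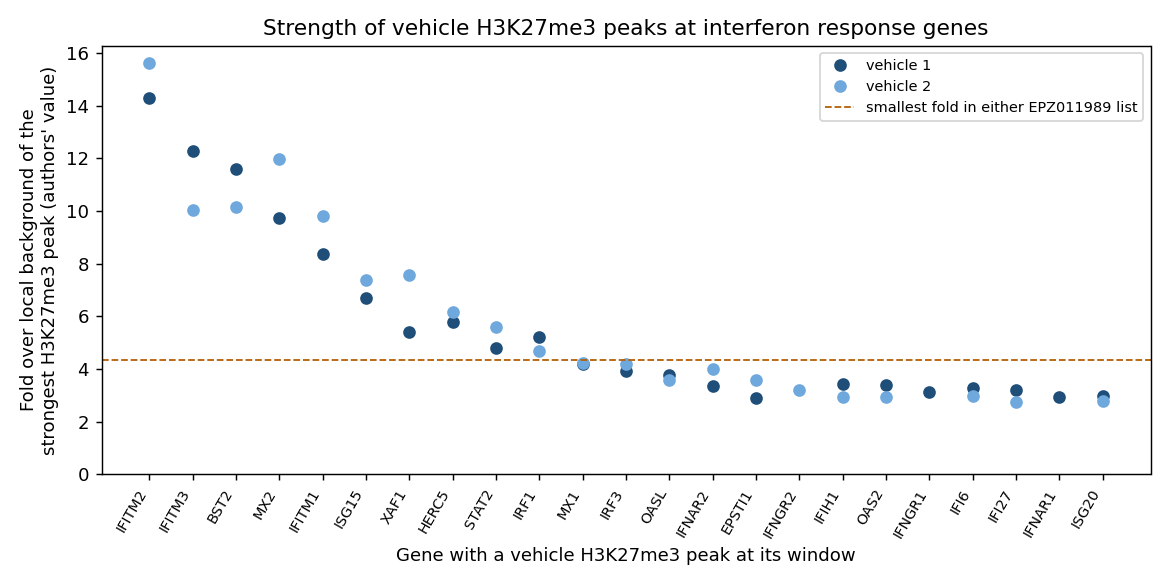
The authors' fold over local background of the strongest H3K27me3 peak at each gene's window in the 2 vehicle libraries (dots, linear axis); the dashed line is the smallest fold in either EPZ011989 list, 4.36. Both dots lie above the line at 10 genes, led by IFITM2, with folds of 14.3 and 15.6.

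The sequence in front of the genes was then set beside the marks, because the induced genes share a response element. Of the 44 genes, 33 had a 300-base promoter in the RefSeq table of GRCh38.p14, which runs from 250 bases before to 50 after the start site. Of these 33 promoters, 20 (60.6%) held the core of an interferon-stimulated response element, searched as TTTC, any 2 bases and TTTC, or on the other strand GAAA, any 2 bases and GAAA, against 502 of 15811 (3.17%) of all promoters. TTCNNNGAA, the palindromic core that STAT dimers bind, was in 10 of 33 (30.3%) and in 1104 of 15811 (6.98%) of all. Both strands were read, and matches may overlap. The 7 stretches printed here were chosen to show each chromatin state with matches: ISG15, IFITM1 and BST2 for H3K27me3 alone, IFI6 and HERC5 for both marks, IFIT1 for H3K4me3 alone and IFI44L for neither. Each is the 250 bases before the start site on the gene's own strand in GRCh38.p14, with matches to either motif in capitals. The last capitals of IFITM1 belong to a match that begins 6 bases before the start site and runs past the end of the stretch.

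ISG15, chr1:1013247-1013496, plus strand: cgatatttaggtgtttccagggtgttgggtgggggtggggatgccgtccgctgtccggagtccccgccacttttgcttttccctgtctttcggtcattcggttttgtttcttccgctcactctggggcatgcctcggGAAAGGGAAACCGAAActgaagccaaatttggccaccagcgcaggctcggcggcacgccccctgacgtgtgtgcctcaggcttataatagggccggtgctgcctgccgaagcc
IFITM1, chr11:313790-314039, plus strand: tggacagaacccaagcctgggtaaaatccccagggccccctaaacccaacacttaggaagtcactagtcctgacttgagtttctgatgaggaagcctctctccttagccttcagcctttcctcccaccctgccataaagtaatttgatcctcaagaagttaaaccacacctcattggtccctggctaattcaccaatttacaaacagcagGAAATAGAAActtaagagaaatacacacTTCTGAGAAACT
BST2, chr19:17405631-17405880, minus strand: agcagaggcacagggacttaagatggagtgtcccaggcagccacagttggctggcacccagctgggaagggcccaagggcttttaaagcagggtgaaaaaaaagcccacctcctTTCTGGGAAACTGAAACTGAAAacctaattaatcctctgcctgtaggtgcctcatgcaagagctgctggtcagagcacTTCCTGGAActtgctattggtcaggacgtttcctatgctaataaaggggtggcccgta
IFI6, chr1:27672193-27672442, minus strand: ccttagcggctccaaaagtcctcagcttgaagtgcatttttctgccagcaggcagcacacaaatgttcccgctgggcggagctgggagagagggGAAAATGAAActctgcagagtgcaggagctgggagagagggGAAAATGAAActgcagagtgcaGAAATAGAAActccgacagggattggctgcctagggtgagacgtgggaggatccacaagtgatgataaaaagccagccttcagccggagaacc
HERC5, chr4:88456869-88457118, plus strand: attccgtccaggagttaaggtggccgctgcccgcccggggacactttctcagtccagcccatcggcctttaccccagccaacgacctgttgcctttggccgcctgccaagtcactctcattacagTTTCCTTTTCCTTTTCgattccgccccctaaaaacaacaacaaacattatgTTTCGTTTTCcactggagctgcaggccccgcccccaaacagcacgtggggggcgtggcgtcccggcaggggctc
IFIT1, chr10:89392373-89392622, plus strand: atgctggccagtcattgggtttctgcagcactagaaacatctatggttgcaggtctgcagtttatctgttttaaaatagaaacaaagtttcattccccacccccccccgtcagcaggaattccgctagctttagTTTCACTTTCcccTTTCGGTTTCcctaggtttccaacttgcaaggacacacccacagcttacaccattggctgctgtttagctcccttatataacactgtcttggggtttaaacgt
IFI44L, chr1:78620198-78620447, plus strand: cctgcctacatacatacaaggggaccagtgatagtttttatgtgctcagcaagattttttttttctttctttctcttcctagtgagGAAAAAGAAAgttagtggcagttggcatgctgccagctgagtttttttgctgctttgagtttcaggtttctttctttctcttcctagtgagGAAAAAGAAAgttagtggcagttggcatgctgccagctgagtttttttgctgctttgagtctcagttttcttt

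In ISG15 the 2 overlapping matches begin 113 and 107 bases before the start site, and all 250 printed bases lay inside H3K27me3 peaks in both vehicle libraries and inside H3K4me3 peaks in both EPZ011989 libraries. All 250 bases of IFITM1 lay inside H3K27me3 peaks in vehicle and in no H3K4me3 peak. No base of the BST2 stretch lay inside a peak, since it falls in a gap between H3K27me3 peaks. The peak upstream of it was 13695 bp long in vehicle replicate 1 and 475 bp in replicate 2. The IFI6 stretch, with matches at 156, 115 and 93 bases, lay inside H3K4me3 peaks in all 4 libraries and shared 219 and 189 bases with vehicle H3K27me3. HERC5 matched at 125, 119 and 74 bases, lay fully inside H3K4me3 in all 4 libraries and shared 233 and 222 bases with vehicle H3K27me3. The IFIT1 stretch, with matches at 116 and 103 bases, was inside H3K4me3 in all 4. IFI44L holds 2 identical matches, at 164 and 73 bases, and had no peak of either mark. A match is a description of the letters and does not show that a factor binds.

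The element occurred in every state. It was in 3 of 9 promoters of genes with H3K4me3 alone, 4 of 6 with both marks, 7 of 8 with H3K27me3 alone and 6 of 10 with neither. The states also differ in gene role. The 9 include the receptors IFNAR1, IFNGR1 and IFNGR2 and the factor IRF9, none with the element, and it was absent from RSAD2 and CMPK2 too. The count of CpG, the dinucleotide that clusters in CpG islands, was read in the same promoters, and neither measure was tested between states. The 33 promoters had a median of 8 CpG, from 0 to 45, and all promoters a median of 22. The median was 19 with H3K4me3 alone, 20.5 with both marks, 7.5 with H3K27me3 alone and 1 with neither. These states were read in windows at both gene ends, not at the promoters alone. Of the genes with H3K27me3 alone, IFI27 and EPSTI1 had none of it within 2500 bp of the start site in vehicle. The BST2 start base lay in no H3K27me3 peak, and that of ISG20 lay in H3K4me3 in all 4 libraries. No promoter of the 10 unmarked genes had more than 8 CpG. RSAD2 with 45, IFNGR2 with 44 and IRF1 with 36 were the richest, and all had H3K4me3. ISG15, at 20, had the most CpG of those with H3K27me3 alone. IFIT1 with 4 had H3K4me3 on a CpG-poor promoter. CMPK2 with 2 shares its H3K4me3 peak with the CpG-rich promoter of RSAD2. In vehicle replicate 2 that peak reached only 98 bases upstream of the CMPK2 start site.

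**Figure D3:**
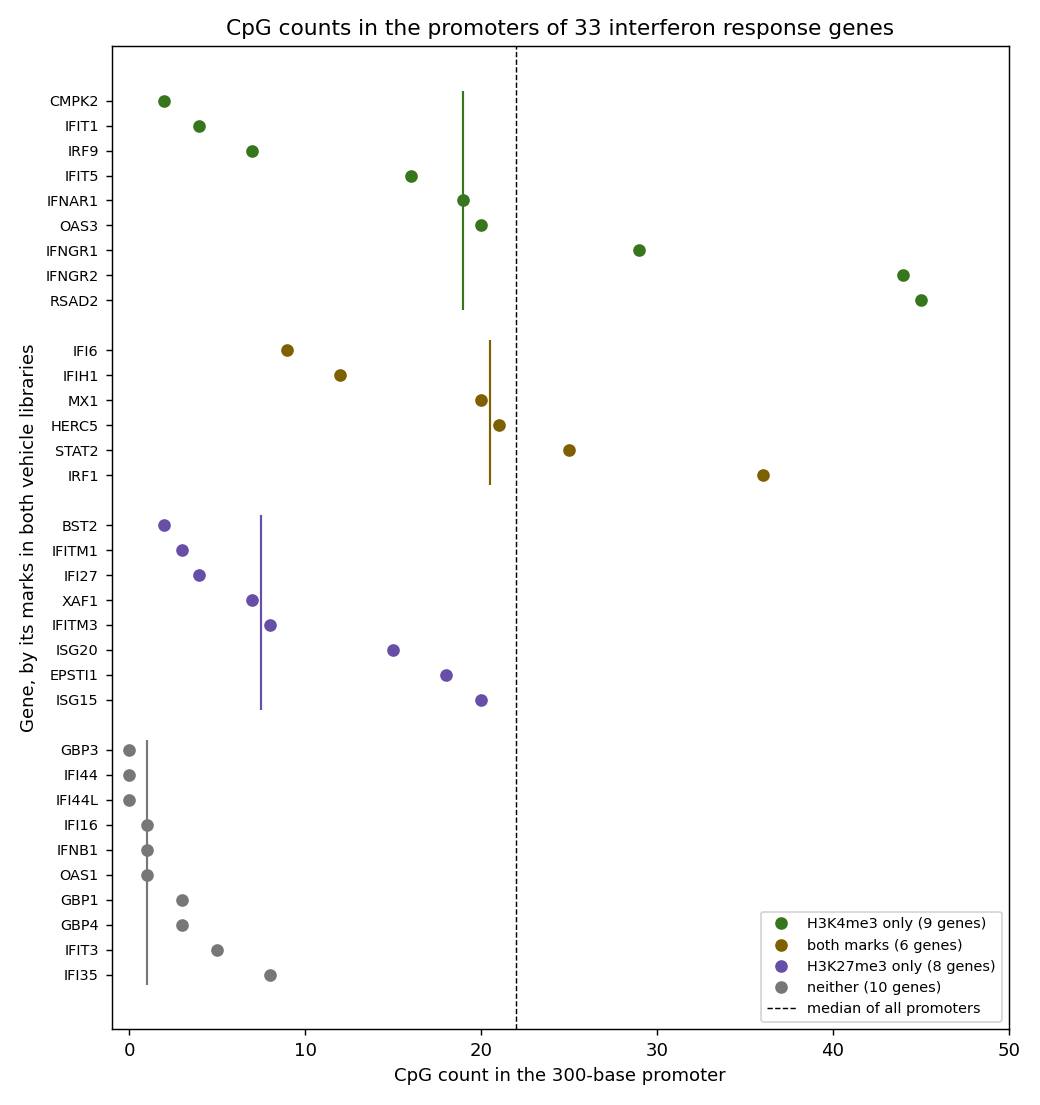
CpG count in the 300-base promoter (horizontal axis) of 33 genes (rows), coloured by the marks at the gene window in both vehicle libraries; solid vertical lines are state medians and the dashed line is the median of all promoters, 22. The 10 genes with neither mark lie at 8 or below, while genes with H3K4me3 reach 45.

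At the start site itself the picture narrowed. Among the 33 genes with a known start site, H3K27me3 covered the start base of 8 in both vehicle libraries: ISG15, IFIH1, HERC5, IRF1, IFITM1, IFITM3, ISG20 and XAF1 (all genes, 20.7%). H3K4me3 covered that of 16 (all genes, 61.8%). Both marks met at the start base of 4 genes, IFIH1, HERC5, IRF1 and ISG20 (all genes, 11.3%). After EPZ011989 no start base of the 33 was inside H3K27me3 (all genes, 0.00632%). ISG15 was alone among the 33 in having H3K4me3 at the start base in both EPZ011989 libraries but in no vehicle library (all genes, 0.911%).

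**Figure D4:**
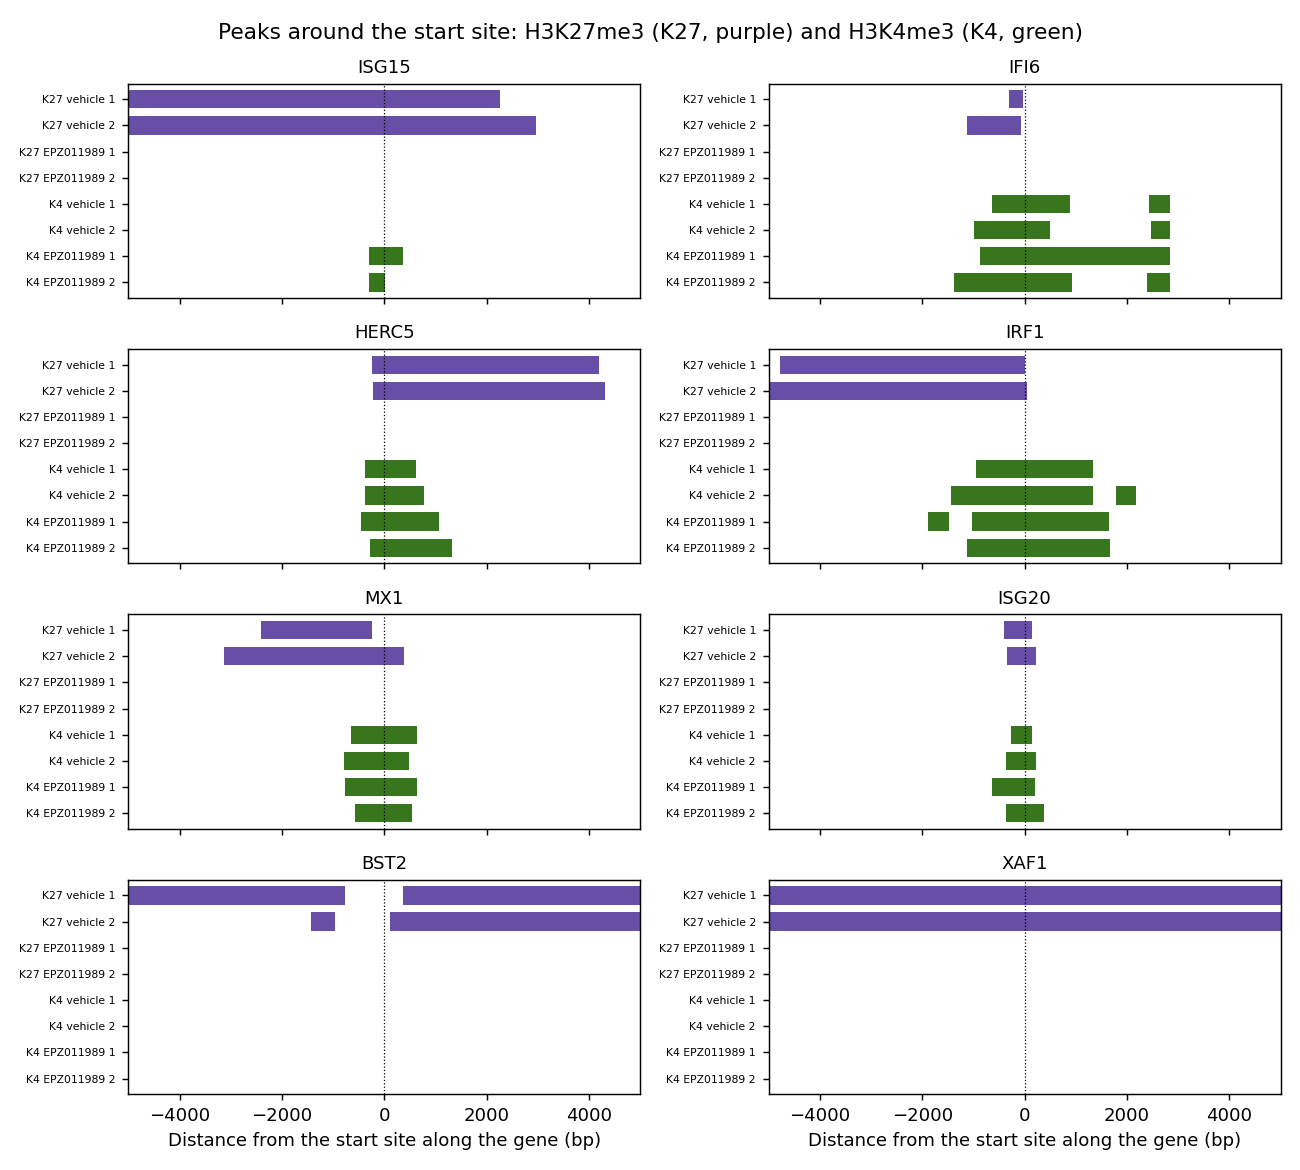
Peaks of each library within 5000 bp of the start site of 8 genes, H3K27me3 in purple and H3K4me3 in green, drawn along the direction of transcription in bp with the start site at 0. H3K27me3 is drawn for the vehicle libraries alone, and ISG15 has green bars in the EPZ011989 libraries only.

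For H3K4me3, limma called none of 13793 genes (0% higher and 0% lower at adjusted p under 0.05). In simulated data the same fit called 17 of 100 gains of 1000 bp and 43 of 100 gains of 2000 bp. A gene that was not called is therefore not shown to be unchanged. At an unadjusted p under 0.05, 8.41% of the genes tested were higher (1160) and 1.48% lower (204). Of the 44 genes, 24 had a H3K4me3 peak in some library and were tested, 0 were called, and at the unadjusted level 3 were higher (IFI6, HERC5 and ISG15) and 1 lower (MX2). Values in the treatment groups did not overlap for 11 of the 24 genes tested. Both EPZ011989 values lay above both vehicle values at 7: IFI6, ISG15, HERC5, RSAD2, CMPK2, IFNGR1 and IRF3 (24.4% of the 13793 genes tested). RSAD2 and CMPK2 share 1 peak and are not separate observations. The EPZ011989 values lay below at 4: USP18, IFIT5, STAT2 and MX2 (12.7% of the 13793). The median difference over all tested genes was 52 bp. Leaving out EPZ011989 replicate 1, the library with the most H3K4me3 coverage, made it −82.75 bp, and leaving out replicate 2 made it 190 bp; the part of coverage in the single differences was not tested. Over the 21 genes with H3K4me3 in all 4 libraries the median was 1753 and 1736 bp in vehicle and 2126 and 2173 bp with EPZ011989. Gene by gene, the median difference over the 24 tested was smaller, 141.75 bp. It became −77 bp with EPZ011989 replicate 1 left out, 275.5 bp with replicate 2 left out and −22.7 bp after quantile normalization, so it had no stable direction. The other 20 genes had no H3K4me3 peak at their window in any library, among them 9 of the 10 marked by H3K27me3 alone.

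**Figure D5:**
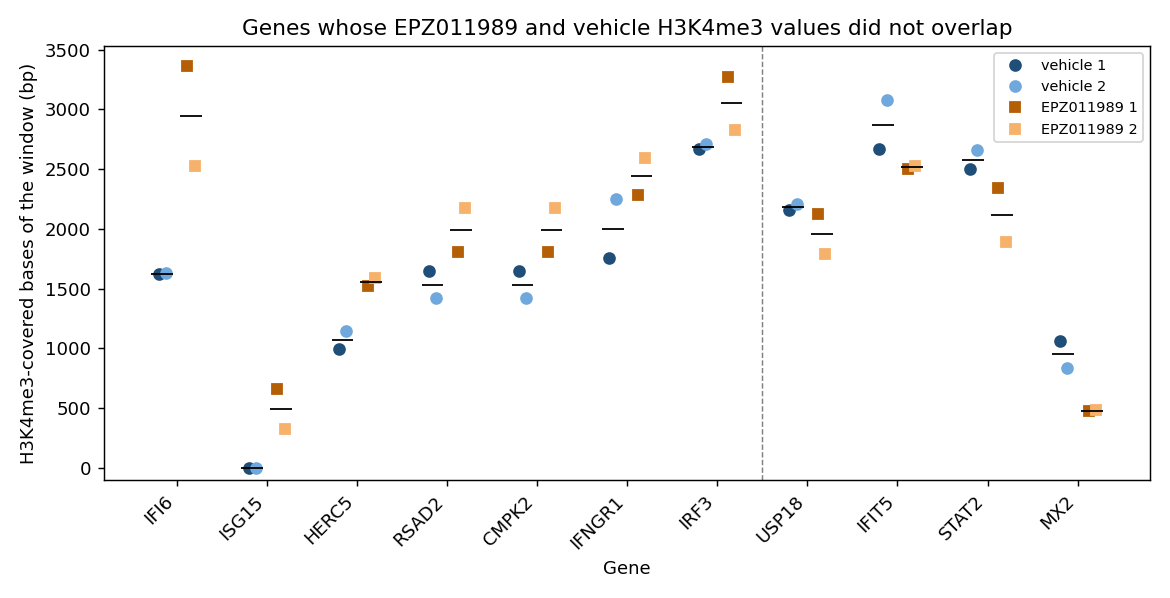
H3K4me3-covered bases of the window in each vehicle (circles) and EPZ011989 library (squares) for the 11 genes whose groups did not overlap; black bars are means of 2 libraries. To the left of the dashed line EPZ011989 is higher, with IFI6 set farthest apart, and to the right it is lower.

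The type I interferon gene IFNB1 had no peak of either mark in any library. Its receptors were marked by H3K4me3. IFNAR1, the receptor chain that binds the kinase TYK2, held 4449 and 4003 bp of H3K4me3 in vehicle and 4436 and 3911 bp with EPZ011989. Its strongest H3K4me3 peak had folds of 158 and 136 in vehicle and 166 and 64.6 with EPZ011989, at the 99.4th percentile or higher of each list. IFNAR2, the high-affinity chain, held 5354 and 4392 bp in vehicle and 5952 and 4757 bp with EPZ011989, but its window also takes in the peak at its neighbour IL10RB. Its vehicle H3K27me3, 1781 and 983 bp, lay largely at different places in the libraries, with 176 bp in common, and was not called (limma adjusted p = 0.0648).

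Among the interferon gamma receptors, IFNGR1, the ligand-binding chain, held 1753 and 2251 bp of H3K4me3 in vehicle and 2287 and 2595 bp with EPZ011989. The groups were parted by a narrow gap. IFNGR2 held 2274 and 2975 bp in vehicle and 3033 and 2675 bp with EPZ011989, and the groups overlapped. IFNAR1, IFNGR1 and IFNGR2 each had H3K27me3 in a single vehicle library, at 303, 1067 and 947 bp, and none of these was called (limma adjusted p = 0.361 each). The receptors as a group therefore lay in H3K4me3 chromatin with little H3K27me3.

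The transcription factors all had H3K4me3 in both vehicle libraries. IRF1, induced by interferon gamma, combined it with H3K27me3 that began at the start site and ran upstream for 4.80 and 5.77 kb. Its window held 2516 and 2551 bp of H3K27me3 in vehicle and 0 with EPZ011989, and it fell (limma adjusted p = 5e-05). Its H3K4me3 was 2270 and 3164 bp in vehicle and 3062 and 2783 bp with EPZ011989, so the groups overlapped. STAT2, a signal transducer of the type I response, held 1050 and 846 bp of H3K27me3 in vehicle and fell too (limma adjusted p = 0.00882). Its H3K4me3 of 2497 and 2663 bp in vehicle stood beside 2344 and 1893 bp with EPZ011989, a difference of −461.5 bp that did not pass (SE 238 bp, limma adjusted p = 0.634).

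IRF3, which is switched on by nucleic acid sensors, held 2210 and 4051 bp of H3K27me3 in vehicle and was not called (limma adjusted p = 0.0671). Its H3K4me3 was 2664 and 2707 bp in vehicle and 3272 and 2829 bp with EPZ011989. The peak also covers the start of the neighbour BCL2L12, so the value cannot be given to IRF3 alone. IRF7, which amplifies type I interferon production, had 1851 and 1736 bp of H3K4me3 in vehicle, 1669 and 2246 bp with EPZ011989 and no H3K27me3. IRF9, the DNA-binding partner of STAT2, had the smallest H3K4me3 peaks of these factors, at 468 and 332 bp in vehicle. With EPZ011989 it had 1039 bp in replicate 1 and none in replicate 2.

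Of the sensors, IFIH1, which encodes the RNA sensor MDA5, was marked by both histone marks across its start site, which it shares with the divergent gene GCA. H3K27me3 was 1604 and 2054 bp in vehicle and fell (limma adjusted p = 0.0113). Its strongest vehicle peaks had folds of 3.43 and 2.94, weaker than any peak listed after EPZ011989. H3K4me3 was 1437 and 1654 bp in vehicle and 1428 and 1545 bp with EPZ011989. The H3K4me3 values of IFIH1 overlapped between the treatments. The DNA sensor IFI16 had 543 bp of H3K4me3 in vehicle replicate 2 and 580 bp in EPZ011989 replicate 1, and none in the other libraries.

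The IFIT proteins bind viral RNA and block its translation. None of the 4 genes had H3K27me3. IFIT1 held 1658 and 1171 bp of H3K4me3 in vehicle and 1566 and 1323 bp with EPZ011989, and IFIT2 held 720 and 785 bp against 834 and 558 bp. IFIT5 held 2670 and 3074 bp in vehicle and 2505 and 2528 bp with EPZ011989, at a peak shared with its neighbour LIPA. IFIT3, from the same gene cluster, had no peak of either mark. Which IFIT genes carried H3K4me3 did not differ between the treatments.

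The OAS enzymes make the 2′-5′ oligoadenylates that activate RNase L. OAS1 had no peak of either mark at its window. OAS2 had 1110 and 353 bp of H3K27me3 in vehicle and was not called (limma adjusted p = 0.189). OAS3 had H3K4me3 alone, at 2414 and 2075 bp in vehicle and 2678 and 2182 bp with EPZ011989. OASL held 3755 and 4364 bp of H3K27me3 in vehicle and fell (limma adjusted p = 0.00411), and 1440 and 1527 bp of H3K4me3 in vehicle beside 1603 and 1344 bp with EPZ011989. Its H3K4me3 peak lies outside the gene, past the end opposite to most of the H3K27me3. In no library did the OASL window have both marks on the same base.

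The membrane proteins that restrict virus entry and release made up the most uniformly covered group. The IFITM proteins hinder fusion of viruses with the cell, and BST2, also called tetherin, holds budding virions at the surface. All 4 genes had H3K27me3 alone, and all 4 fell. IFITM1 (chr11:314040-315272) held 5993 and 6134 bp of a window of 6233 bp, 6064 ± 99.7 bp (SD, n = 2), against 0 in both replicates with EPZ011989 (limma adjusted p = 7.9e-05). IFITM2 (chr11:307816-309395) held 5108 and 5268 bp of 6580 bp (limma adjusted p = 0.000149), and IFITM3 (chr11:319676-320860) held 3161 and 3406 bp of 6185 bp (limma adjusted p = 0.000965). The peak over IFITM2 was 46.3 and 50.8 kb long. IFITM2 and IFITM1 had H3K27me3 over 100% of the gene, as did IFITM3, whose own peak of 1588 and 1652 bp stood apart from its neighbours.

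BST2 (chr19:17402939-17405630) held 6550 and 5559 bp of its 7692-bp window in vehicle and fell (limma adjusted p = 0.0049). Peaks of 59.1 and 59.4 kb covered 86.1% and 96.0% of the gene and ended 375 and 108 bp short of the start site, on the gene's side of it. None of the IFITM genes or BST2 had a H3K4me3 peak in any of the 4 libraries. Loss of the listed H3K27me3 peaks was thus not accompanied by a H3K4me3 peak at any of these 4 genes by day 6.

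The dynamin-like GTPases MX1 and MX2, which trap viral nucleocapsids, contrasted with the guanylate-binding proteins. MX2 (chr21:41362027-41409393) lay almost wholly in H3K27me3, with 9725 and 10002 of 10002 bp in vehicle, and fell (limma adjusted p = 0.000498). Peaks of 65.9 and 37.1 kb reached it from FAM3B. Its H3K4me3 was weak: 1064 and 839 bp in vehicle and 474 and 488 bp with EPZ011989, a difference of −470.5 bp (SE 172 bp, limma adjusted p = 0.473). The peak starts beyond the higher-numbered gene end and had folds of 4.01 to 5.72, low in each list.

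MX1 (chr21:41420558-41459214) held 7177 and 6515 bp of H3K27me3 in vehicle, upstream of its start and at its far end, and fell (limma adjusted p = 0.00164). Its start site carried H3K4me3 in all 4 libraries, at 1288 and 1272 bp in vehicle and 1414 and 1101 bp with EPZ011989. H3K27me3 crossed that start in vehicle replicate 2 and ended at −232 bp from it in replicate 1. The 5 guanylate-binding protein genes GBP1 to GBP5, which lie together on chromosome 1 and are typical targets of interferon gamma, had no peak of either mark at their windows in any library.

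RSAD2, which encodes the radical SAM enzyme viperin, and CMPK2, a nucleotide kinase, share 1 divergent start region and 1 H3K4me3 peak. Both windows held 1649 and 1418 bp in vehicle and 1809 and 2173 bp with EPZ011989, a difference of 457.5 bp that did not pass (limma adjusted p = 0.59). As the peak is shared, the genes count as a single observation. Vehicle H3K27me3 at RSAD2 lay only inside the gene, outside the window, in peaks of 528 and 1698 bp. ISG20, an exonuclease for single-stranded RNA, held 1640 and 1888 bp of H3K27me3 in vehicle and fell (limma adjusted p = 0.00366). Its start site lies inside the annotated gene span, outside the window. There, short peaks of both marks met in vehicle: H3K27me3 of 541 and 570 bp on H3K4me3 of 417 and 577 bp. With EPZ011989 the H3K4me3 peak there was 842 and 754 bp long, longer than in both vehicle libraries, and the H3K27me3 peak was not listed; this comparison was chosen after the values were seen and has no test.

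The ISG15 system attaches the ubiquitin-like protein ISG15 to other proteins. ISG15 (chr1:1013497-1014540) was the only one of the 44 genes to gain H3K4me3, defined as a peak with EPZ011989 in both replicates and with vehicle in none (1.33% of all genes tested). In vehicle it lay inside H3K27me3 peaks of 37.5 and 38.2 kb, which covered 100% of the gene and 4762 and 5472 of 6044 bp of the window, 5117 ± 502 bp (SD, n = 2). With EPZ011989 H3K27me3 fell to 0 in both replicates (limma adjusted p = 0.00349). H3K4me3 was 0 and 0 bp in vehicle and 659 and 328 bp with EPZ011989. The difference of 493.5 bp did not pass (SE 186 bp, limma adjusted p = 0.483).

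The ISG15 peaks of the EPZ011989 libraries were unequal. In replicate 1 the peak ran from −291 to 367 bp around the start site, with a fold of 12.5 and a −log10 q of 27.1. In replicate 2 it ran from −306 to 21 bp, with a fold of 3.56 and a −log10 q of 2.33, among the weakest of that list (percentile 5.7). The gain was not counted with a minimum overlap of 500 bases, with peaks of −log10 q of 5 or more, or with windows of 5000 bp. No gene of the set lost H3K4me3 (0.203% of all genes tested). None had it widened or narrowed by 1000 bp or more in both libraries (1.07% and 0.0363% of all genes tested). With a minimum overlap of 500 bases MX2 counted as lost, and with EPZ011989 replicate 1 left out IRF9 did. The next to the limit of 1000 bp was IFI6, whose lower EPZ011989 value exceeded its higher vehicle value by 900 bp.

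HERC5 (chr4:88457119-88506163), the ligase that joins ISG15 to new proteins, had both marks at its start. H3K27me3 was 2734 and 2723 bp in vehicle, in peaks of 4.42 and 4.54 kb that began at −233 and −222 bp from the start and ran into the gene, and it fell (limma adjusted p = 2.1e-05). H3K4me3 was 996 and 1150 bp in vehicle and 1525 and 1589 bp with EPZ011989. Both EPZ011989 libraries were higher than both vehicle libraries. The difference of 484 bp did not pass after adjustment (SE 167 bp, limma adjusted p = 0.441). The H3K4me3 peak reached 617 and 772 bp into the gene in vehicle, and 1064 and 1315 bp with EPZ011989, over bases that H3K27me3 had covered. USP18, which removes ISG15 from proteins, had no H3K27me3 and held 2160 and 2208 bp of H3K4me3 in vehicle and 2126 and 1787 bp with EPZ011989.

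Of the other induced genes, IFI6 (chr1:27666064-27672192), a membrane protein that limits flavivirus replication, showed the largest H3K4me3 difference of the 44 by limma. Its window held 1621 and 1630 bp in vehicle and 3362 and 2530 bp with EPZ011989, means of 1626 ± 6.36 and 2946 ± 588 bp (SD, n = 2 each). The difference of 1320.5 bp did not pass after adjustment (SE 316 bp, limma adjusted p = 0.295). It passed when genes without any peak were kept in the fit (limma adjusted p = 0.000759). That fit also takes in genes with 0 bp in every library, and it called 491 genes higher and 32 lower, where the main fit called 0. Leaving out EPZ011989 replicate 1 or 2 gave differences of 904.5 or 1736.5 bp at IFI6. In vehicle a peak of 1517 and 1482 bp at the start site was parted by a gap from a short peak inside the gene. In EPZ011989 replicate 1 a single peak of 3706 bp spanned both, and in replicate 2 the peaks stayed separate and that at the start was 2292 bp long. The fold of the IFI6 peak was 28.0 and 27.5 in vehicle and 28.3 and 21.4 with EPZ011989, at percentiles of 56.4, 59.5, 51.1 and 55.7 within the lists. Its vehicle H3K27me3 was short, 269 and 1069 bp just before the start, and was not called (limma adjusted p = 0.236).

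XAF1 (chr17:6755447-6775647), which binds the apoptosis inhibitor XIAP, was the gene most fully covered by H3K27me3: 10002 of 10002 bp in both vehicle libraries and 100% of the gene, within peaks of 82.9 and 145 kb. Both EPZ011989 libraries had 0 (limma adjusted p = 2.1e-21). This p is so small because both groups sit at the ceiling and floor of the measure with no spread. IFI27, a mitochondrial protein strongly induced by type I interferon, held 1330 and 1398 bp in vehicle and fell (limma adjusted p = 0.000532), yet only 358 bp were covered in both libraries. EPSTI1 held 1587 and 1453 bp at its far end and fell (limma adjusted p = 0.00146), with 565 bp in common. IFI35, IFI44 and IFI44L had no peak of either mark at their windows, and XAF1, IFI27 and EPSTI1 had no H3K4me3 at their window in any library. Inside EPSTI1, away from the window, vehicle replicate 1 listed a H3K4me3 peak of 278 bp.

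Seen over the states, 7 genes had at least 50% of the gene span inside H3K27me3 in both vehicle libraries (all genes, 8.35%): IFITM1, IFITM2, IFITM3, BST2, MX2, ISG15 and XAF1. Of these 7, only ISG15 had a new H3K4me3 peak with EPZ011989 (1.33% of all genes tested), and its peak in replicate 2 was weak, at a fold of 3.56. How often other genes so covered gained a peak was not counted. Among the 10 genes with both marks the H3K4me3 difference ran from −470.5 to 1320.5 bp, above 0 at 5 and below 0 at 5. Among the 12 with H3K4me3 alone it ran from −355.5 to 457.5 bp, above 0 at 8 and below 0 at 4. RSAD2 and CMPK2 are both counted there, although they share 1 peak, and that peak alone gives the upper end of 457.5 bp. The ranges of these states overlap, and no test was made between them.

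Other genes of the pathway, 100 in all, were read in the same way. H3K27me3 marked 38 and H3K4me3 47 of them in both vehicle libraries, and 22 had both. Over all genes these shares were 36.9%, 65% and 24.2%. For H3K27me3, 30 of 50 tested fell and 0 rose, beside 60.2% lower of all genes tested. Quantile normalization split the pathway genes into 22 lower and 19 higher. For H3K4me3, 0 of 49 were called (2 at an unadjusted p under 0.05). Of 20 other interferon genes, 4 had H3K27me3 in both vehicle libraries and 0 had H3K4me3, and 16 had no peak at all. Of 15 other receptors, kinases and regulators, 9 had H3K27me3 and 13 H3K4me3. The counts were 6 and 7 among 17 other sensors and adaptors, and 19 and 27 among 48 other effectors.

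JAK1, the kinase on both receptors, had no H3K27me3, and 4418 and 4839 bp of H3K4me3 in vehicle beside 4603 and 4367 bp with EPZ011989. RIGI, an RNA sensor, and its adaptor MAVS also had H3K4me3 and no H3K27me3. RIGI held 1374 and 1400 bp in vehicle and 1335 and 1553 bp with EPZ011989. MAVS held 2066 and 2752 bp in vehicle and 2390 and 2289 bp with EPZ011989. In the DNA-sensing arm, neither CGAS nor STING1 had a H3K4me3 peak in any library, and STING1 fell from 287 and 239 bp of H3K27me3 (limma adjusted p = 0.00731). TLR3, an endosomal RNA sensor, had no peak of either mark.

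The pathway genes with the largest falls had H3K27me3 over all 10002 bp in both vehicle libraries: IRF4, IRF8, PARP10, PSMB9, SLFN11, TAP1 and ZBP1. SOCS3, PSMB8 and IFNL1 followed, with falls of 9148, 8963 and 7267 bp, which are the whole windows of these shorter genes, so the order reflects window size. They include TAP1, PSMB8 and PSMB9, neighbours in the MHC region that serve antigen presentation, and ZBP1, a sensor of Z-form nucleic acid. For H3K4me3, 2 of 49 pathway genes were higher at the unadjusted level, a share no larger than the 8.41% of all genes tested. PARP10, an ADP-ribosyltransferase, held 2476 and 2150 bp in vehicle and 4207 and 3878 bp with EPZ011989, a difference of 1729.5 bp (SE 234 bp, limma adjusted p = 0.147). SOCS3, which inhibits cytokine receptor signalling, held 2321 and 2217 bp in vehicle and 3362 and 3154 bp with EPZ011989, a difference of 989 bp (SE 204 bp, limma adjusted p = 0.222). Neither passed the adjusted threshold.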

How the data were processed

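CUT&RUN peak lists of 12 libraries on hg38 were used as deposited. The submitters' processing notes name MACS2 2.1.1.20160309, Bowtie2 2.2.9, SAMtools 0.1.19 and FastQC; calling thresholds, control and use of the spike-in are not given in the sources used here. The authors called H3K27me3 as broad and H3K4me3 and IgG as narrow peaks, each library separately. Each deposited peak has the authors' fold (a ratio of pileup to local background), −log10 p and −log10 q, and a score derived from the q value. Folds were used within a list, and to compare the weakest listed peaks.

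Gene ends came from the RefSeq table of GRCh38.p14, which gives no strand. Start sites and strand were known for 15811 of 19970 genes and 33 of the 44. Bases of each window inside peaks were counted without scaling between libraries and fitted by limma 3.58.1 (R 4.3.3, trend and robust options), each mark apart, leaving out genes without a peak in any of the 4 libraries. P-values were Benjamini-Hochberg adjusted over all tested genes, at a threshold of 0.05. Marked means an overlap of 1 base or more in both libraries. The script was tested on simulated data. There it called 137 of 200 genes with H3K27me3 peaks removed and 24 of 9385 unchanged genes. In the real data only 41 of 19970 genes had a H3K27me3 peak in any EPZ011989 library. The simulated setting thus differs from the real H3K27me3 fit, and its rates cannot be carried over to that fit. For H3K4me3 the script called 17 of 100 gains of 1000 bp, 43 of 100 gains of 2000 bp and 0 of 13123 unchanged genes. The member and pathway lists were chosen with earlier results of these data known. Genes were named if H3K27me3 was in both vehicle libraries, if H3K4me3 had an unadjusted p under 0.05 or changed state, or if it was missing; other members are given for completeness of each role. For the pathway, up to 10 largest H3K27me3 falls, up to 5 largest H3K4me3 differences and 7 set genes were to be named, of which 1 is not reported here. Alternatives were other windows, a stricter q, start sites only, another overlap, log2 values, quantile normalization, no filter, a replicate block and leaving out each library. Read counts and the spike-in were not analysed here.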

Additional observations from a re-analysis of the deposited data

How the results depend on the processing

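Peak lists without read counts limit these results: a window counts only what passed the authors' caller, depth is unknown, and 2 libraries a group leave little to estimate spread.

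For H3K27me3, 5783 genes were called, 16 of them members and 30 from the pathway list. With peaks of −log10 q of 5 or more these counts were 3301, 10 and 19, members marked in vehicle went from 20 to 10, and members with both marks from 10 to 3. Start-site windows called 3707 genes and 10 members and left 12 members marked. Leaving out single libraries gave 3212 to 8884 genes, 10 to 22 members and 20 to 46 pathway genes; with a vehicle library left out, the spread came mostly from values of 0. The fit with no filter could be made only without the robust option. Quantile normalization, which forces nearly empty lists to the shape of full ones, gave 3599 lower and 3309 higher genes. Under it 11 members reversed, with EPZ011989 above vehicle by 1016 bp at IFNAR1, 410 at IFNAR2, 803 at IFNGR1, 920 at IFNGR2, 643 at STAT2, 211 at IFIH1, 746 at OAS2, 237 at ISG20, 811 at IFI6, 430 at IFI27 and 346 at EPSTI1.

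For H3K4me3, where 0 genes were called, windows of 1000 bp gave 6, windows of 5000 bp gave 35, quantile normalization gave 96 and no filter gave 523. No filter called 1 member, IFI6, and 2 pathway genes, and quantile normalization called 1 pathway gene. The gain at ISG15 was not counted (0 members gained or widened) with a 500-base overlap, windows of 5000 bp or a −log10 q of 5, and 1 to 2 members were counted when single libraries were left out, IFI6 being added without EPZ011989 replicate 2. The cause of these differences was not tested.

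No label says that replicate numbers mark a shared batch. Deviations of same-numbered H3K4me3 libraries had a correlation of −0.030; that of H3K27me3 cannot be read, since the EPZ011989 values are nearly all 0. A replicate block gave 4555 genes, 16 members and 24 pathway genes for H3K27me3 and 0 of each for H3K4me3. A −log10 q of 2, added after the data were seen, gave 5108 genes and 12 members for H3K27me3.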

Other observations

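The longest vehicle H3K27me3 peaks at these genes also covered neighbours that are not interferon response genes. The peak at ISG15 ran over PERM1 and HES4, that at BST2 over PLVAP and CCDC194, that at MX2 over FAM3B, and that at IFITM2 over NLRP6, PGGHG and IFITM5. At XAF1 it ran over FBXO39 and TEKT1 in both libraries and also over SLC13A5 in replicate 2. The windows of these interferon genes are therefore not separate from those of their neighbours.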
